A study of Rattus norvegicus with 56 samples.

Results

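Immediate early genes, the first genes that neurons transcribe after they fire, were followed in the hippocampus and parietal cortex of young and aged rats 48 h after brain stimulation. The set held 37 genes, among 16581 genes with a probe on the array: AP-1 factors (Fos, Fosb, Fosl1, Fosl2, Jun, Junb, Jund, Atf3 and Maff), zinc finger, orphan receptor and other factors (Egr1 to Egr4, Nr4a1 to Nr4a3, Npas4, Klf10 and Csrnp1), regulators of signalling and growth (such as Dusp1, Dusp5, Btg2 and Sik1), and synaptic or secreted effectors (Arc, Homer1, Nptx2, Ptgs2 and Inhba). A gene entered the set by name, where the RefSeq accession of a probe mapped to its symbol, and the brightest probe stood for a gene with several. All 37 genes had a probe. Fosl1 was well above background in 2 of 24 animals in the hippocampus and 0 of 24 in the cortex and was not tested, which left 36 genes tested in each region. Values are log2 signals scaled to a common mean and spread on each array, so 0 is the mean of all probes of an array and a difference of 1 is about a doubling.

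The animals were male Long-Evans rats, a common outbred strain in memory research. Ages were 6 to 7 months in the young group and 26 to 27 months in the old groups, whose members the labels call unimpaired (AU) or impaired (AI) from the Morris water maze, a test of spatial memory. The methods of the study describe the maze for the rats that gave its brain slices. Each rat received intermittent theta burst stimulation (iTBS), a patterned form of transcranial magnetic stimulation, or sham stimulation with the coil held away from the head. Every rat, sham animals included, was sedated with isoflurane and dexmedetomidine and woken with Antisedan, and was deeply anaesthetised with isoflurane before death. Each region was measured in 4 young sham (Y_Sham), 4 young iTBS (Y_iTBS), 4 AU_Sham, 5 AU_iTBS, 4 AI_Sham and 3 AI_iTBS rats. The replicates were separate animals by their labels, which give more aged rats than the methods of the study do, and every test here takes the number of animals from the labels. The tissue was dorsal hippocampus and neocortex dissected from under the coil.

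The share of probes well above background ranged from 61.7% to 67.6% over the hippocampal arrays and from 60.7% to 69.7% over the cortical arrays. Arrays lay on 7 slides scanned on 3 days, 15 animals on the first day and 9 on the later days. No animal had its first arrays of both regions on the same slide, although repeat arrays of Y_Sham animal 3 shared slides. First arrays of hippocampus and cortex lay mostly on separate slides, and those of the later days were mostly scanned on separate days. Region therefore cannot be fully told apart from slide, nor on the later days from scan day, in levels or in spread. The cortical markers Tbr1 (-1.47), Lamp5 (-1.88), Rorb (-0.97) and Cux2 (-0.85) were higher in the cortical samples, as hippocampus minus cortex differences. Of 4 hippocampal markers, 3 were higher in the hippocampus (Neurod6, Wfs1 and Zbtb20) and Prox1 was not called (-0.08, adjusted p = 0.548). Of 5 markers of choroid plexus, the secretory tissue of the ventricles, 4 were higher in the hippocampus (median 1.65). One AI_Sham rat (animal 1) and one AU_Sham rat (animal 4) stood apart in the cortex: 32 and 30 of the 36 genes lay above the mean of their groups in these animals, by a median of 0.68 and 0.41. Values without them, chosen after the data were seen, stand beside the results that they moved most.

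Calcium entering an active neuron, through synaptic receptors and voltage-gated channels, switches on kinases that phosphorylate transcription factors already bound at immediate early promoters, chiefly CREB at cAMP response elements and serum response factor at CArG boxes. The messages that follow are short-lived and need no new protein to appear. Many encode transcription factors that drive later genes, several encode phosphatases and kinases that end the signal, and a few, such as Arc, act at the synapse itself. Because these messages rise and fall quickly, their level in dissected tissue reads mostly the recent past of the animal.

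The proximal promoters are shown for 6 of the genes named in the results below. They are the 250 bases before the annotated start, 5′ to 3′ on the strand of the gene, from the RefSeq table of the rat build GRCr8. Capitals mark the cAMP response element (CRE, TGACGTCA), its core TGACG, the CArG box and the binding motif of EGR factors (GCGNGGGCG), each searched on both strands. Every CRE also holds the core. Each promoter shown holds a CRE or its core. The promoters of Npas4, Fosb, Homer1 and Dusp6, also named below, hold none of these motifs and are not shown.
Btg2 (chr13:48087691-48087940, minus strand): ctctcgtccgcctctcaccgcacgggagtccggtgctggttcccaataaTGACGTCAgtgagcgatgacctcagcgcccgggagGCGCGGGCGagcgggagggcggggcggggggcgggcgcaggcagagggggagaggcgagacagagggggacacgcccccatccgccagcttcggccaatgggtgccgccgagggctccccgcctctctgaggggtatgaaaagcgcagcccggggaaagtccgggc
Dusp1 (chr10:17184603-17184852, plus strand): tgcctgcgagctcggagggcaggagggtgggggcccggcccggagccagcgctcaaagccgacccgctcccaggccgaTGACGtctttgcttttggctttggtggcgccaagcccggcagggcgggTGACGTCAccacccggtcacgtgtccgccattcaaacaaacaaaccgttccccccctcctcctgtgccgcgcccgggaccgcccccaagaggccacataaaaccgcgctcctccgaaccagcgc
Dusp5 (chr1:262543524-262543773, plus strand): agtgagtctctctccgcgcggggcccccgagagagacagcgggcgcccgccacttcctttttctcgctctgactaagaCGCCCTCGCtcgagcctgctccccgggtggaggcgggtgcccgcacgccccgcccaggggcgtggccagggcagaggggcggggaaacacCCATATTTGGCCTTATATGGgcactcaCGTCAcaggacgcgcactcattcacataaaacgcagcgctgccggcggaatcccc
Egr2 (chr20:21054442-21054691, minus strand): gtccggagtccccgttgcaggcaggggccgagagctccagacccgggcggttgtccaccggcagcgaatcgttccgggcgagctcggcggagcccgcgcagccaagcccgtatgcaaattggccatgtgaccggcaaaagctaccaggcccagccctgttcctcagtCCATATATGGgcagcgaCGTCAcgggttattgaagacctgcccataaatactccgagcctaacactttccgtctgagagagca
Nr4a1 (chr7:134259888-134260137, plus strand): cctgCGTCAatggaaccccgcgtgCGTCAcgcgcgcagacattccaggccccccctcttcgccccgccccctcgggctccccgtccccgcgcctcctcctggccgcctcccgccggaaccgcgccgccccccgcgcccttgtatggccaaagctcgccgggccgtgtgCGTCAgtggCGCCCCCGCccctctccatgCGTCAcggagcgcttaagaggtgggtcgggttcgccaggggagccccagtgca
Maff (chr7:112792537-112792786, plus strand): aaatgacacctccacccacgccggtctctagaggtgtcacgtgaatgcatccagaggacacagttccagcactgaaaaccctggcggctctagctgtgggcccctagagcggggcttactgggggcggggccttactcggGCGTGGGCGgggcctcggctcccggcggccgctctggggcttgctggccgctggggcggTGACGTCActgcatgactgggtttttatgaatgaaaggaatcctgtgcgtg

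Of the 37 genes, 26 had a window of 300 bases (250 before and 50 after the start) in that table. A CRE was present in 6 of the 26 (23.1%: Btg2, Dusp1, Ier2, Jund, Maff and Plk2), and in 1.83% of all 33469 promoter windows. The core, within a CRE or on its own, was present in 17 (65.4%) against 21.2% of all windows. CArG boxes lay in 3 (11.5%: Dusp5, Egr1 and Egr2) against 1.64%, and EGR motifs in 8 (30.8%) against 4.98%. The TATA sequence TATAAA was found in 4 (15.4%) against 8.8%. Neither the AP-1 motif TGANTCA (7.33% of all windows) nor the NR4A motif AAAGGTCA (1.43%) was found in the 26. These are matches of letters and were not tested for binding.

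The levels of these genes differed mostly between the brain regions. Hippocampus and cortex of the same 24 animals were compared, and 28 of the 36 genes tested differed by limma at an adjusted p under 0.05, against 49.5% of all probes. Of these, 18 were higher in the cortex (background 23.2%) and 10 were higher in the hippocampus (background 26.3%). The median difference, hippocampus minus cortex, was -0.19 over the 36 genes and 0.02 over all probes. In tissue samples of this kind, fewer cells of a type and less RNA per cell cannot be told apart.

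Among AP-1 factors, 4 of 8 were higher in the cortex and 3 were higher in the hippocampus. Fos, the classical marker of recently active neurons, ranged from -0.45 through a median of 0.26 to 1.73 in the hippocampus and from 0.30 through 1.74 to 4.21 in the cortex. The ranges overlapped, but 22 of 24 animals were higher in the cortex (only 2 were higher in the hippocampus). The difference was -1.42 ± 0.2 (SE, adjusted p = 4.7e-06), a level 2.67-fold higher in the cortex. Fosb (-0.99 ± 0.116), its close relative, Junb (-0.64 ± 0.125) and Jund (-0.27 ± 0.0973) were also higher in the cortex. Jun (0.28 ± 0.0466), the usual partner of Fos, Fosl2 (0.15 ± 0.0564) and Atf3 (0.64 ± 0.139), a stress-responsive factor, were higher in the hippocampus. The other probe of Jun gave 0.00, and Jun was not called from the mean of its probes. Fosl2 and Jund lay near the threshold, with Fosl2 not called under 75th percentile scaling (adjusted p = 0.203) or quantile normalization and Jund not called under quantile normalization (adjusted p = 0.178) or with the deposited z-scores. Maff, a small Maf protein that lacks an activation domain, did not pass the test (0.16, 95% interval -0.04 to 0.35).

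The zinc finger and orphan receptor factors gave 5 of 10 higher in the cortex and 2 higher in the hippocampus. Npas4, a factor induced by neuronal calcium and not by growth factors, showed the widest gap. Its level ran from -4.85 through -2.72 to -1.19 in the hippocampus and from -2.75 through -0.52 to 1.49 in the cortex. The difference was -2.06 ± 0.25 (adjusted p = 6.28e-07), or 4.18-fold, and 1 of 24 animals went the other way. Its probe was well above background in 10 of 24 hippocampal and 21 of 24 cortical samples, so the hippocampal values sat near the limit of measurement.

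Egr1, the most studied of the EGR factors in memory, was higher in the cortex of every animal. Its hippocampal values ran from 3.59 through 4.36 to 5.15 and its cortical values from 3.92 through 5.35 to 6.57 (difference -0.93 ± 0.0691, adjusted p = 3.37e-10). Egr4 differed by the same amount (-0.94 ± 0.0731), again in every animal. Egr2 differed by -1.42 ± 0.165 with the brighter probe, but its other probe gave -0.12, so the size for Egr2 depended on the probe.

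The Nr4a orphan receptors, which need no ligand, went in different directions. Nr4a3 ran from 3.35 through 3.81 to 4.44 in the hippocampus and from 1.91 through 2.57 to 3.89 in the cortex. It was higher in the hippocampus of 23 of 24 animals (1.10 ± 0.115, adjusted p = 7.08e-08). Nr4a1 was higher in the cortex (-0.48 ± 0.0991, adjusted p = 0.000414), and Nr4a2 did not pass the test (0.12, interval -0.13 to 0.37). Csrnp1 was higher in the hippocampus (0.33 ± 0.104). Egr3 (-0.07, interval -0.23 to 0.08) and Klf10 (0.03, interval -0.18 to 0.25) did not pass it. The Egr3 probe was dim, with means of -2.33 in the hippocampus and -2.25 in the cortex. It was well above background in 20 of 24 hippocampal and 21 of 24 cortical samples.

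Genes that restrain the signal went both ways. Dusp5 and Dusp6 encode phosphatases that inactivate ERK, and both were higher in the hippocampus. Dusp5 ran from 4.57 through 4.96 to 5.35 in the hippocampus and from 2.49 through 3.21 to 4.18 in the cortex, so the regions did not overlap. Its difference was 1.62 ± 0.0978 (adjusted p = 1.26e-11), 3.08-fold higher in the hippocampus and in the same direction in 24 of 24 animals. Dusp6 (0.41 ± 0.0752), Dusp4 (0.43 ± 0.129), a nuclear phosphatase of the same family, and Gadd45b (0.51 ± 0.058), a stress and DNA demethylation factor, were higher there too.

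Dusp1, which favours the p38 and JNK kinases, went the other way. It ran from -1.46 through -0.42 to 1.20 in the hippocampus and from 0.10 through 0.99 to 2.65 in the cortex (-1.40 ± 0.175, adjusted p = 9.44e-07). Trib1 (-0.94 ± 0.139), a pseudokinase, Ier5 (-0.79 ± 0.0731), Ier3 (-0.49 ± 0.0739), Ier2 (-0.49 ± 0.0838), Plk2 (-0.40 ± 0.0658), a kinase that weakens synapses after strong activity, and Btg2 (-0.38 ± 0.112), an antiproliferative factor, were also higher in the cortex. Sik1 (-0.10, interval -0.28 to 0.07) and Gadd45g (-0.09, interval -0.27 to 0.08) did not pass the test. The group gave 4 of 13 higher in the hippocampus and 7 higher in the cortex.

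Among the 5 effectors, 1 was higher in the hippocampus and 2 were higher in the cortex. Arc, whose protein draws glutamate receptors back from the synapse, ran from 6.35 through 6.82 to 7.59 in the hippocampus and from 5.54 through 6.75 to 8.77 in the cortex. Its mean difference was -0.04 (interval -0.27 to 0.19, adjusted p = 0.798). Homer1, a postsynaptic scaffold (-0.58 ± 0.0845), and Nptx2, a secreted protein that gathers glutamate receptors (-0.32 ± 0.0887), were higher in the cortex. The file does not say whether the Homer1 probe reads the short activity-induced form. Ptgs2, the inducible cyclooxygenase, was higher in the hippocampus (0.38 ± 0.113), and Inhba, a subunit of activin, did not pass the test (-0.06, interval -0.30 to 0.17).

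**Figure D1:**
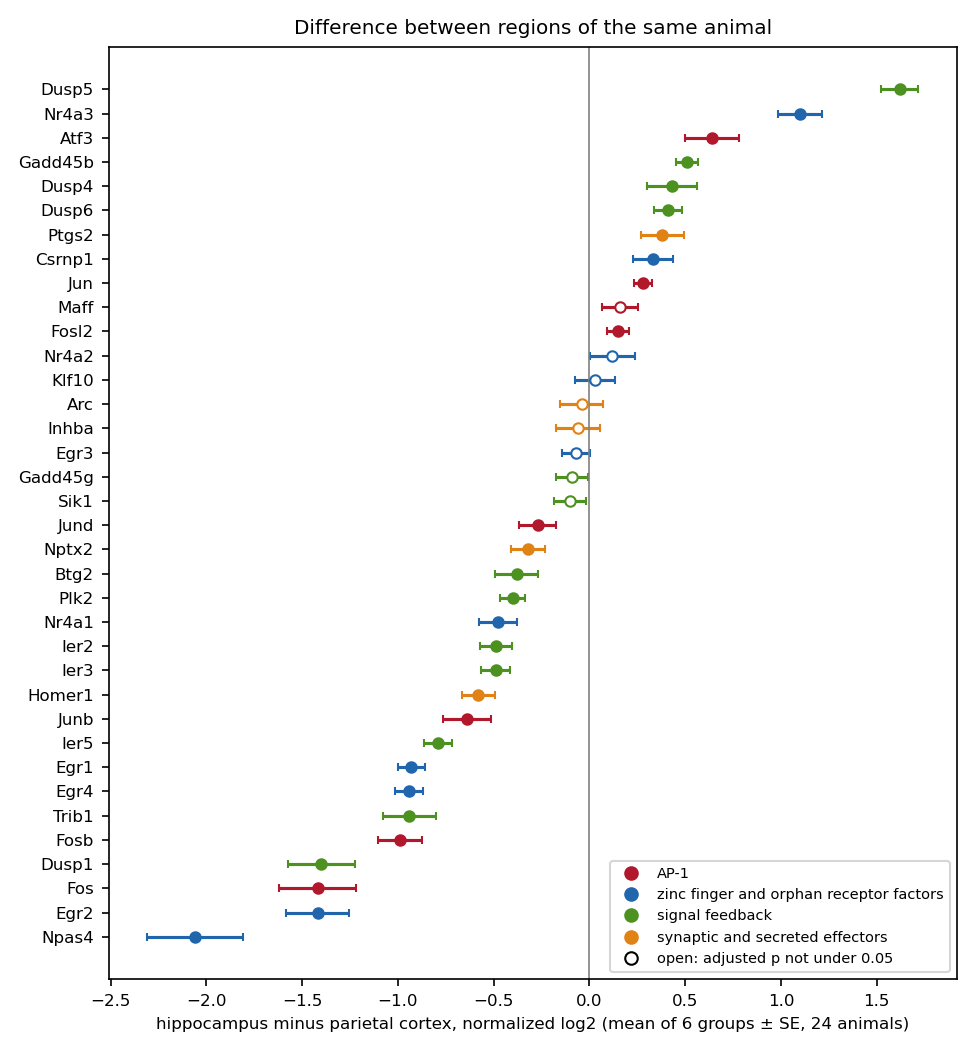
Difference in normalized log2 level between hippocampus and parietal cortex of the same animal for the 36 genes tested, as the mean over 6 groups with its SE (24 animals), coloured by role and open where the adjusted p was not under 0.05. Dusp5 lies farthest to the right at 1.62 and Npas4 farthest to the left at -2.06.

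Other genes of the same programme were compared from fixed lists. Of 28 further activity-regulated genes, 8 were higher in the hippocampus and 10 were higher in the cortex (64.3% called, against 49.5% of all probes). Rasd1 (1.59), Scg2 (1.19), Bdnf (1.12), the growth factor of synaptic plasticity, and Myc (0.99) were higher in the hippocampus, and Ccn1 (-1.53), Tac1 (-1.26), Ccn2 (-1.11) and Syt4 (-0.70) were higher in the cortex. Of 26 upstream receptors, kinases and coactivators, 10 differed, 5 in each direction (38.5%, below the 49.5% of all probes). Camk2b was higher in the hippocampus (0.79), and Prkacb (-0.73) and Rps6ka3 (-0.68) were higher in the cortex.

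The regions also differed in cell types. Endothelial markers were all higher in the cortex (4 of 4, median -0.34), 3 of 5 neuronal markers were higher there (median -0.32), and 3 of 4 astrocyte (median 0.27) and 3 of 4 oligodendrocyte markers (median 0.59) were higher in the hippocampus, while the fourth, Mbp, was higher in the cortex (-0.35). Their part in the differences above was not tested. The number of the 36 genes called was 21 in sham animals alone and 24 in iTBS animals alone. It was 27 on the first scan day and 22 on the later days, and 23 with the slide as a random block. Fos, Btg2, Fosl2, Homer1, Ier2, Jun and Ptgs2 were no longer called on the later scan days. With the slide block Btg2, Csrnp1, Dusp4, Fosl2 and Ptgs2 were lost. Sham animals alone lost these and Atf3, Jund and Nptx2, and gained Sik1. Genes higher in the hippocampus numbered 6 with the slide block and 5 in sham animals, and those higher in the cortex 17 and 16. None of the 28 genes turned in direction under any of these settings.

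Animals varied more in the cortex than in the hippocampus. The SD within groups was larger in the cortex for 36 of 36 genes, with a median ratio of 1.63, and for 74.1% of all probes, with a median ratio of 1.27. The median SD of the 36 genes was 0.27 in the hippocampus, near that of all probes at 0.26, and 0.49 in the cortex, above that of all probes at 0.35. Arc had an SD of 0.32 in the hippocampus and 0.81 in the cortex. Homer1 (ratio 3.27), Ier2 (3.02), Btg2 (2.97) and Nr4a1 (2.72) showed the widest contrast in spread. The cortical SD without AI_Sham animal 1 and AU_Sham animal 4 was larger for 33 of 36 genes, with a median ratio of 1.46, and for 77% of all probes, with a median ratio of 1.31.

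The same animals tended to be high or low in both regions for a few genes. After group means were removed, the hippocampal level was correlated with the cortical level across 24 animals, with 100000 permutations for each of 36 genes and Benjamini-Hochberg adjustment. The relation passed for 7 genes, all positive, by Pearson's r and for 4 by Spearman's rho. An r of at least 0.5 was seen in 7 of 36 genes and in 9.94% of all probes, and the median r was 0.17 against 0.04. The median over the 36 genes was 0.04 without the 2 animals farthest from the median of each gene. The relation passed for 4 genes (Arc, Egr1, Sik1 and Fosl2) without AI_Sham animal 1 and AU_Sham animal 4, with an r of at least 0.5 in 4 of 36 genes and 11.2% of all probes and medians of 0.09 and 0.05.

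Arc gave r = 0.85 and rho = 0.82 (adjusted permutation p = 0.00036). In the hippocampus the 4 AI_Sham values were 7.59, 7.23, 6.53 and 7.07 and the 4 AU_Sham values 6.59, 7.17, 6.71 and 7.52. In the cortex of the same animals, in the same order, they were 8.77, 7.16, 6.23 and 6.67, and 6.49, 7.86, 6.60 and 8.52. The AI_Sham rat with the highest hippocampal level and the AU_Sham rat with the highest also had the highest cortical levels of their groups. Without the 2 animals farthest from the hippocampal median, r was 0.82, and it was 0.83 over the 15 animals of the first scan day and 0.96 over the 9 of the later days. It was 0.77 without AI_Sham animal 1 and AU_Sham animal 4 (adjusted permutation p = 0.00072).

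Egr1 (r = 0.78, rho = 0.71, adjusted permutation p = 0.00036) and Nr4a1 (r = 0.73, rho = 0.67, adjusted permutation p = 0.00054) also held without 2 animals (0.76 and 0.62) and within scan days (0.78 and 0.80 for Egr1, 0.68 and 0.82 for Nr4a1). With AI_Sham animal 1 and AU_Sham animal 4 left out Egr1 was 0.77, but Nr4a1 was 0.49 and did not pass (adjusted permutation p = 0.115). Sik1 (r = 0.74, rho = 0.75) gave 0.46 and 0.75 within scan days, and its level moved with scan day itself, with later minus first day values of -0.86 in the hippocampus and -0.76 in the cortex. Atf3 (r = 0.74, rho = 0.49) and Maff (r = 0.54, rho = 0.41) rested on the extreme animals, with r of 0.35 and 0.21 without them. Fosl2 gave 0.58, and 0.46 without them. Within scan days it gave 0.27 and 0.52, and its level moved with scan day too (-0.34 in the hippocampus and -0.27 in the cortex).

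Fos did not pass this test (r = 0.32, adjusted permutation p = 0.323, and -0.04 without the 2 extreme animals), nor did Npas4 (r = 0.18, adjusted permutation p = 0.692). The lowest values were those of Ier5 (-0.37), Plk2 (-0.35) and Gadd45g (-0.20). The value of Ier5 rests on its brighter probe, with which its other probe gave r = -0.32 in the hippocampus and 0.12 in the cortex. The marker sums of 9 cell types and the share of probes above background did not pass a correlation with cortical Arc (all adjusted p at least 0.875). Hippocampal Arc gave r = 0.55 with the neuronal marker sum (adjusted permutation p = 0.0513), whose part in the relation was not tested.

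**Figure D2:**
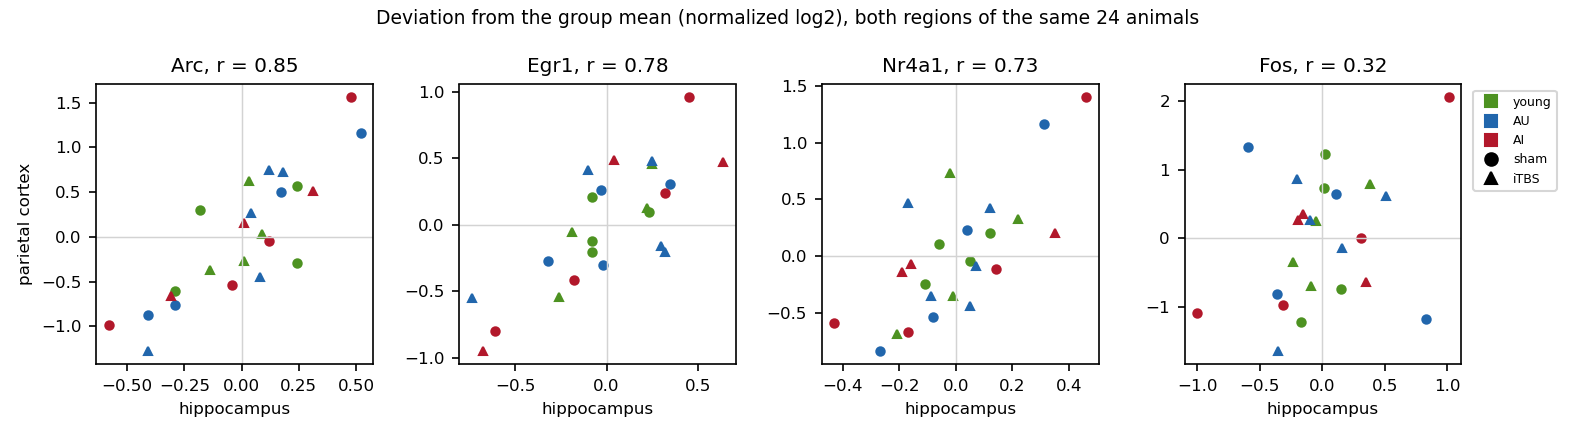
Deviation from the group mean (normalized log2) in the hippocampus, on the horizontal axis, and in the parietal cortex, on the vertical axis, of 24 animals for Arc, Egr1, Nr4a1 and Fos, with colour for age and cognitive group and shape for treatment. The points follow a line for Arc (r = 0.85), Egr1 (0.78) and Nr4a1 (0.73) and scatter for Fos (0.32).

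Within the cortex many of the genes moved together from animal to animal. Their levels were correlated with that of Fos over 24 animals after group means were removed, and all the values of an animal came from the same array. Of 35 genes, 20 passed by Pearson's r, all positive, and 19 by Spearman's rho, of which 1 was negative (Egr3). An r of at least 0.5 was seen in 17 of 35 genes and in 1.87% of all probes, with medians of 0.49 and 0.01. AI_Sham animal 1 and AU_Sham animal 4 carried part of this: without them 11 genes passed (10 positive and Egr3 negative), an r of at least 0.5 was seen in 10 of 35 genes and 1.41% of all probes, and the medians were 0.32 and 0.01.

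The closest to Fos was Btg2 (r = 0.95, rho = 0.95), followed by Arc (r = 0.94, rho = 0.91), Ier2 (r = 0.90, rho = 0.93), Dusp6 (r = 0.82, rho = 0.74) and Egr2 (r = 0.81, rho = 0.81). Each had the smallest p that the permutations can give, 1e-05, and an adjusted p of 5e-05. In AU_iTBS animals, for example, cortical Fos was 2.80, 0.30, 2.56, 1.80 and 2.21, and cortical Btg2 was 4.25, 3.25, 4.26, 3.57 and 4.23 in the same order. The second animal was the lowest of its group for both. Without the 2 extreme animals the 5 values were 0.93, 0.90, 0.87, 0.75 and 0.75. On the first scan day they were 0.95, 0.90, 0.79, 0.76 and 0.79, and on the later days 0.97, 0.97, 0.97, 0.94 and 0.86. With AI_Sham animal 1 and AU_Sham animal 4 left out they were 0.92, 0.89, 0.88, 0.73 and 0.67, all of which passed.

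Nr4a1 (r = 0.80, rho = 0.77), Npas4 (r = 0.69, rho = 0.62, adjusted permutation p = 0.000544) and Egr1 (r = 0.56, rho = 0.48, adjusted permutation p = 0.0105) were also correlated with cortical Fos. Without these animals Nr4a1 was 0.65 and Npas4 0.74, and Egr1 was 0.37 and did not pass (adjusted permutation p = 0.184). At the other end was Egr3, which missed the threshold by r (-0.40, adjusted permutation p = 0.0781) and passed by rho (-0.52, adjusted permutation p = 0.0236), and which was -0.60 without these animals (adjusted permutation p = 0.0111). The Egr3 probe was dim (cortical mean -2.25) and well above background in 21 of 24 cortical samples. Homer1 (-0.27) and Inhba (-0.23) did not pass. Cortical Fos did not pass a correlation with any of the 9 marker sums or with the share of probes above background (r from -0.35 to 0.13, adjusted p at least 0.809).

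In the hippocampus 12 of 35 genes passed the same test with Fos, 10 positive and 2 negative, and 7 passed by rho. An r of at least 0.5 was seen in 9 of 35 genes and in 12.3% of all probes, with medians of 0.27 and 0.02. A negative r of 0.5 or more in size was seen in 2 of 35 genes and in 9.49% of all probes. The median was 0.00 without the 2 animals of most extreme Fos. Without AI_Sham animal 1 and AU_Sham animal 4, 8 genes passed and the median was 0.09 against 0.04 over all probes. An r of at least 0.5 was then seen in 6 of 35 genes and in 12.1% of all probes. Under 75th percentile scaling 8 passed too, with 5 genes at an r of at least 0.5. The share of all probes was not taken under that scaling. Btg2 was again the closest (r = 0.88, rho = 0.71, adjusted permutation p = 0.00035, 0.84 without the 2 extreme animals), followed by Ier2 (0.74, rho 0.65), Egr2 (0.70, rho 0.52), Klf10 (0.69, rho 0.45) and Ier5 (0.65, rho 0.61). Egr2 dropped to 0.40 without the 2 extreme animals. The value of Ier5 rests on its brighter probe, which its other probe did not follow in this region (r = -0.32).

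Hippocampal Arc did not pass (r = 0.17, adjusted permutation p = 0.52, and -0.34 without the extreme animals), nor did Egr1 (0.23), Nr4a1 (0.37) or Npas4 (0.43). Ptgs2 (r = -0.67, adjusted permutation p = 0.00227) and Plk2 (r = -0.52, adjusted permutation p = 0.0353) were negative, and Sik1 was -0.46 (adjusted permutation p = 0.0606). Hippocampal Fos was itself correlated with the sum of the hippocampal markers (r = -0.67, rho = -0.75, adjusted permutation p = 0.0045) and of the cortical markers (r = 0.64, rho = 0.55, adjusted permutation p = 0.0045), and these held on the first scan day (-0.57 and 0.77) and the later days (-0.76 and 0.62). The part of tissue make-up in the hippocampal relations was not tested, nor was the difference between the regions in these correlations.

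**Figure D3:**
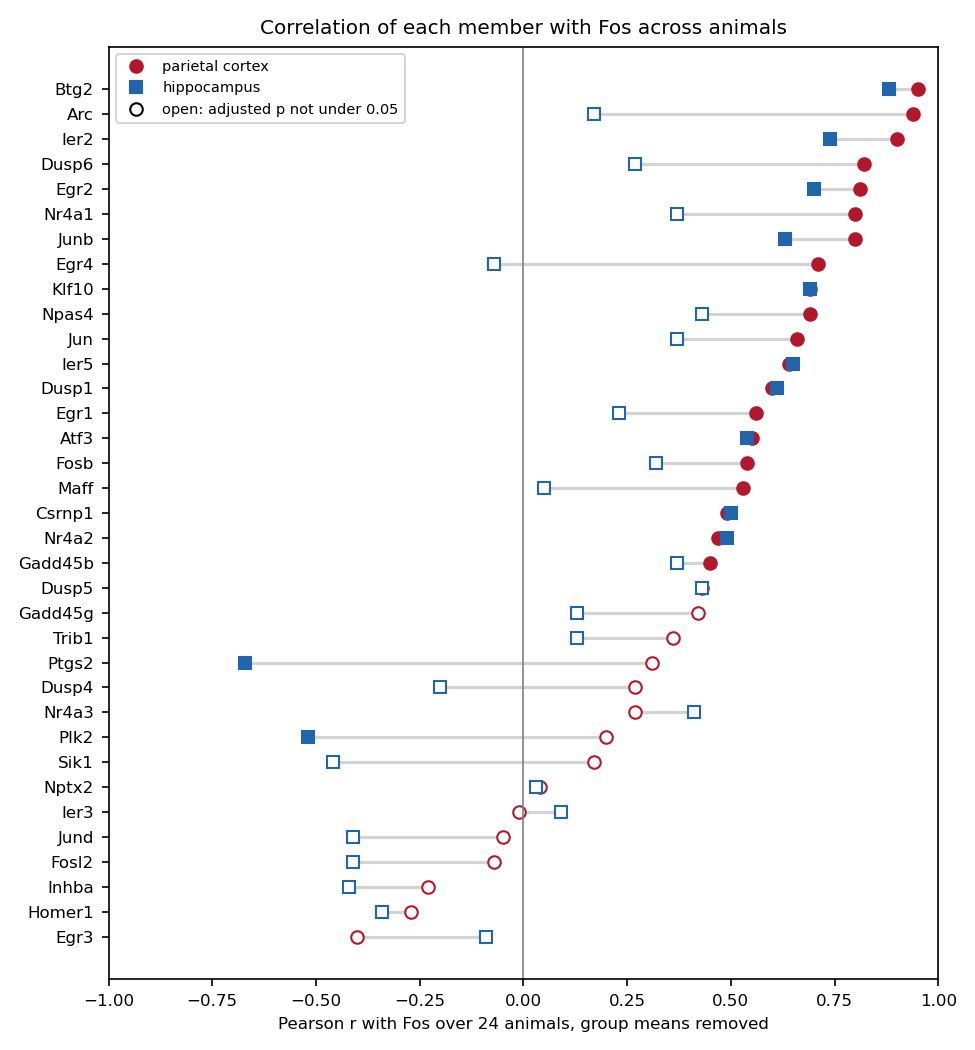
Pearson's r of each gene with Fos over 24 animals, group means removed, in parietal cortex (circles) and hippocampus (squares), open where the adjusted permutation p was not under 0.05. Arc is at 0.94 in the cortex and 0.17 in the hippocampus, while Btg2 is at 0.95 and 0.88.

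Age was compared first in sham animals, 8 aged against 4 young. In the hippocampus 0 of 36 genes passed the adjusted threshold by limma, against 0.00308% of all probes, and 3 had an unadjusted p under 0.05, against 8.22%. In the cortex 0 of 36 passed, against 0.104%, and 5 had an unadjusted p under 0.05, against 9.47%. Of the 36 genes, 23 were higher in aged hippocampus (median 0.04) and 28 were higher in aged cortex (median 0.19), against medians of -0.02 and -0.01 over all probes. The shares of all probes that were higher were 45.9% and 47.8%. Without AI_Sham animal 1 the cortical count was 22 (median 0.05) and without AU_Sham animal 4 it was 24 (median 0.11). In the hippocampus the deposited z-scores gave 18 higher and 18 lower.

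Maff had the smallest p of the 36 genes in the aged hippocampus. The Y_Sham values were -0.66, -0.82, -0.24 and -0.34, the AU_Sham values -0.08, 0.05, -0.06 and 0.91, and the AI_Sham values 0.73, 0.10, 0.13 and 0.15. All 8 aged sham animals lay above all 4 young ones, which held for 1 of 36 genes and 0.466% of all probes. The difference was 0.76 ± 0.174 and was not called (adjusted p = 0.276).

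The iTBS animals showed the same order. Hippocampal Maff was -0.29, -0.48, -0.20 and -0.50 in Y_iTBS, 0.15, -0.06, 0.23, 0.14 and 0.41 in AU_iTBS, and 0.44, 0.66 and 0.11 in AI_iTBS. All 16 aged animals, from -0.08 to 0.91, lay above all 8 young animals, from -0.82 to -0.20, a separation seen in 0.0647% of all probes. In a comparison over sham and iTBS animals together, chosen after the values were seen, Maff was higher in aged hippocampus by 0.71 ± 0.123 (adjusted p = 0.00859), the only one of the 36 genes called, against 0.512% of all probes. Leaving out each of the 24 animals in turn gave 0.65 to 0.75 with adjusted p of at most 0.0284. The difference was 0.61 on the first scan day and 0.81 on the later days, which on their own were not called (adjusted p = 0.413 and 0.204).

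Cortical Maff did not pass the test. The aged minus young difference over both treatments was 0.92 ± 0.231 (adjusted p = 0.0966, and called in 1 of 24 fits that left out an animal). None of the 36 genes was called in that cortical comparison, against 0.402% of all probes. The groups overlapped, with young animals from -1.71 to -0.14 and aged ones from -0.77 to 1.47. No gene of the set had aged and young cortex apart, in sham animals (0.994% of all probes) or in all animals (0.0644%). Of the cell type lists, 0 markers were called between aged and young sham animals in either region. Over all probes the shares were 0.00308% in the hippocampus and 0.104% in the cortex. The hippocampal medians were 0.01 for oligodendrocyte, -0.02 for microglial and 0.11 for astrocyte markers. They were 0.17 for neuronal, -0.13 for endothelial, -0.01 for choroid plexus and 0.49 for blood markers. By limma 1 of 4 microglial markers in the hippocampus had an unadjusted p under 0.05, as had 2 of 4 astrocyte (median 0.27) and 1 of 5 neuronal markers in the cortex. The part of cell types in the Maff difference was not tested.

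Other genes with an unadjusted p under 0.05 in aged sham animals were Nptx2 (-0.29) and Fosb (0.55) in the hippocampus and Atf3 (1.69), Fosb (0.76), Maff (0.76), Fosl2 (0.39) and Gadd45b (0.36) in the cortex, none called (adjusted p from 0.392 to 0.604). Cortical Atf3 was -0.47, -0.58, -0.19 and -2.48 in Y_Sham, 0.14, -0.37, -0.66 and 1.36 in AU_Sham, and 3.89, -0.54, 0.24 and 1.99 in AI_Sham. The spread within groups was as wide as the gap between them, and the highest value was that of AI_Sham animal 1. Cortical Fosb was 0.47 without that animal.

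Cognitive status was compared between 4 AI_Sham and 4 AU_Sham animals. No gene was called in the hippocampus, as for all probes (0%), and 3 of 36 had an unadjusted p under 0.05, against 4.03%: Atf3 (0.89, and 0.30 without AI_Sham animal 1), Csrnp1 (-0.32) and Ier3 (0.25). In the cortex none was called, as for all probes (0%), and 2 had an unadjusted p under 0.05, against 6.43%: Plk2 (-0.39) and Ptgs2 (-0.63), with Homer1 next (-0.51). Cortical Homer1 was 5.16, 6.82, 6.62 and 6.42 in AI_Sham and 6.43, 6.68, 6.83 and 7.13 in AU_Sham. The lowest value again came from AI_Sham animal 1, the animal with the highest Fos and Arc, and without it the difference for Homer1 was -0.15.

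**Figure D4:**
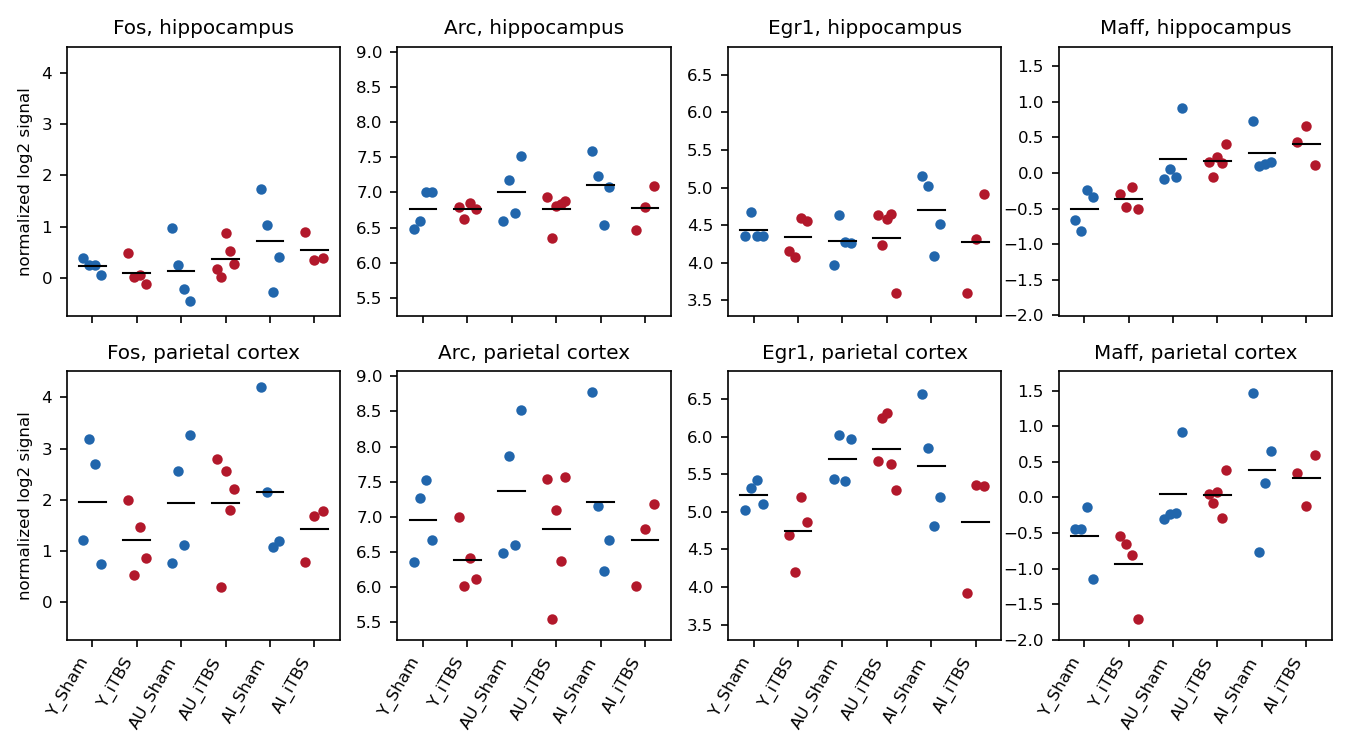
Normalized log2 level of Fos, Arc, Egr1 and Maff in each animal of the 6 groups (points, blue for sham and red for iTBS) with the group mean (line), in hippocampus and parietal cortex. Hippocampal Maff lies below -0.08 in every young animal and at or above it in every aged one, and cortical Fos and Arc spread over 3.91 and 3.23 log2 units.

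The comparison of iTBS with sham asks whether stimulation left a mark on this programme 48 h later. It was made within young, AU and AI animals and over both aged groups, in each region. None of the 36 genes was called by limma in any of these 8 comparisons. All probes gave 0% called in each, except 0.00613% in AI cortex. At an unadjusted p under 0.05 the counts were 1, 0, 0 and 0 in young, AU, AI and all aged hippocampus, against 4.54%, 2.29%, 1.88% and 2.46% of all probes. They were 0, 2, 2 and 4 in the cortex, against 2.71%, 8.38%, 4.07% and 2.92%.

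Sik1, a kinase that CREB induces and that then holds back the coactivators of CREB, was the 1 gene in young hippocampus. It was -1.52, -1.63, -0.97 and -0.74 in Y_Sham and -0.97, 0.09, -0.36 and -0.58 in Y_iTBS. The groups overlapped, and the difference of 0.76 was not called (adjusted p = 0.93). Its iTBS difference in aged hippocampus was lower than in young by 1.13 (value -1.13, adjusted p = 0.799). Dusp6 (-0.30) and Jund (0.30) came next in young hippocampus.

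The genes of smallest p in the other hippocampal comparisons were Csrnp1 (-0.24), Egr3 (-0.29) and Sik1 (-0.38) in AU, Ptgs2 (-0.47), Fosb (-0.56) and Nr4a1 (-0.27) in AI, and Egr3 (-0.27), Arc (-0.28) and Ptgs2 (-0.32) over both aged groups. All had an adjusted p of at least 0.978. In the cortex they were Egr3 (0.39), Ier3 (-0.31) and Ier2 (-0.43) in young animals, Jun (-0.31), Plk2 (-0.32) and Egr4 (-0.49) in AU, and Csrnp1 (-1.15), Atf3 (-1.61) and Gadd45b (-0.43) in AI. The Egr3 probe was dim in both regions.

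Jun in AU cortex was 5.79, 5.65, 5.85 and 6.08 in sham and 5.77, 5.35, 5.42, 5.55 and 5.53 in iTBS animals. One iTBS animal reached the sham range, and the adjusted p was 0.579. Csrnp1, a nuclear factor rich in cysteine and serine, was 3.11, 2.25, 2.62 and 2.57 in AI_Sham cortex and 0.15, 1.85 and 2.47 in AI_iTBS cortex. The first iTBS animal was far below the rest, and without it the difference was -0.48. Atf3 in AI cortex was -0.78 without AI_Sham animal 1.

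Over both aged groups the cortical values leaned downward with iTBS. Of 36 genes, 31 were lower (median -0.17), against 47.6% of all probes (median 0.01), and Csrnp1 (-0.70), Sik1 (-0.73), Atf3 (-1.09) and Gadd45b (-0.32) had an unadjusted p under 0.05 (adjusted p = 1). The genes are not independent, since they moved together from animal to animal. Without AI_Sham animal 1 the count was 27 and the median -0.10, and without AU_Sham animal 4 it was 28 and -0.12. It was 26 and -0.11 on the first scan day and 31 and -0.44 on the later days. The same genes in the aged hippocampus gave 28 lower (median -0.04), but 19 without AI_Sham animal 1 and 16 on the first scan day. Over all probes 50.3% were lower in that comparison.

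Young cortex gave 24 lower (median -0.10) and young hippocampus 18 (median 0.00), against 52.3% and 54.3% of all probes. AU animals gave 26 lower in the cortex (median -0.16), or 21 (median -0.03) without AU_Sham animal 4, and 20 in the hippocampus (median -0.01). Over all probes 44.7% were lower in AU cortex and 50.5% in AU hippocampus. AI animals gave 28 in the cortex (median -0.20) and 29 in the hippocampus (median -0.15), against 52.1% and 48.9% of all probes. Without AI_Sham animal 1 the AI counts were 18 (median 0.01) and 22 (median -0.05). The AU and AI comparisons use the same animals as the pooled aged one, so they are not further evidence of the lean.

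Arc did not pass the test in the cortex of any group, with iTBS minus sham differences of -0.57 in young, -0.54 in AU and -0.54 in AI animals (adjusted p of at least 0.7). Cortical Arc was 6.36, 7.26, 7.53 and 6.67 in Y_Sham and 7.00, 6.01, 6.41 and 6.11 in Y_iTBS. In AU_iTBS it was 7.54, 5.54, 7.09, 6.37 and 7.57 and in AI_iTBS 6.01, 6.83 and 7.18. Every iTBS group overlapped its sham group. The AI difference was -0.02 without AI_Sham animal 1 and the AU difference -0.16 without AU_Sham animal 4. The direction did not hold on all scan days. On the first day the cortical differences were -0.92 in young, -0.69 in AU and 0.32 in AI animals. On the later days they were 0.19, 0.24 and -2.76. The later days held only 1 Y_iTBS, 1 AU_Sham, 1 AI_Sham and 1 AI_iTBS animal. In the hippocampus the differences were -0.01, -0.24 and -0.33.

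Whether iTBS acted differently with age or region was tested directly. The iTBS difference of aged minus that of young animals was called for 0 of 36 genes in either region, as for all probes (0%), with 2 genes at an unadjusted p under 0.05 in the hippocampus (Sik1 and Egr4, -0.42) against 4.31%, and 0 in the cortex against 3.22%. The iTBS difference in the hippocampus minus that in the cortex was called for 0 genes in young or aged animals (0% of all probes). Sik1 (0.73) had an unadjusted p under 0.05 in young animals, against 2.65% of all probes, and Atf3 (1.05), Csrnp1 (0.59) and Gadd45b (0.31) in aged animals, against 2.28%. For the young iTBS and sham groups, limma recovered simulated differences of 1 on this scale in 61% of probes in the hippocampus and 40% in the cortex. Those probes were drawn from all probes tested, with a median cortical SD of 0.35. The 36 genes had a median cortical SD of 0.49, and Arc 0.81. Recovery at the spread of these genes was not simulated.

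**Figure D5:**
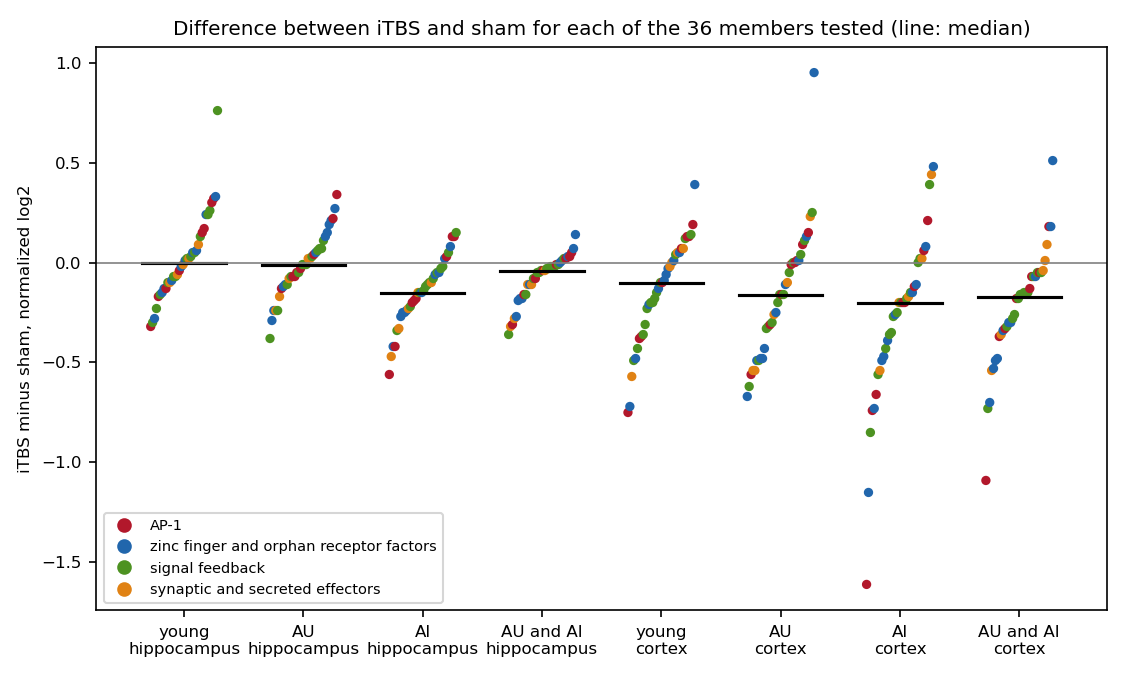
Difference between iTBS and sham animals (normalized log2, vertical axis) for each of the 36 genes, coloured by role, in young, AU, AI and all aged animals of each region, with the median as a line. The medians run from 0.00 in young hippocampus to -0.20 in AI cortex, and none of the points was called.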

How the data were processed

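Total RNA of each region was hybridised to Agilent SurePrint rat arrays of 1 colour, and the deposited values are spot intensities from Agilent Feature Extraction, which the authors left on a linear scale after background subtraction. A table of z-scores, which the authors made from log-transformed intensities, was deposited too, and this score served as an alternative. It lay within 0.0050 of a z-score computed here over all spots, control and flagged spots included. That is not the scaling of the values reported here. From the intensities, log2 values were taken, spots with outlier flags (267 to 1448 an array) and control spots were left out, copies of a probe were averaged, and each array was scaled to mean 0 and a common SD (4.08). Of 56 arrays, 48 were first arrays of 24 animals, 7 were repeats and 1 had labels in conflict and entered no comparison. Repeats were averaged with the first array, except a cortical repeat of AI_iTBS animal 2. It resembled AI_Sham animal 2 (r = 0.753, against 0.076 with its own first array). Whether the repeat or the first arrays carry the wrong label cannot be told, and the AI cortical values follow the labels of the first arrays.

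A probe was tested if at least 3 of 24 animals showed it well above background (32433 probes in the hippocampus, 32601 in the cortex, 33733 in either). limma 3.58.1 in R 4.3.3 fitted 6 group means per region, or the difference between regions of each animal, with 18 residual degrees of freedom and Benjamini-Hochberg adjustment over all probes at 0.05. Correlations used numpy 2.4.6 and 100000 permutations. Symbols came from RefSeq through probe accessions, and 46.3% of probes had one. For array data the number of animals limits precision, and p-values rest on the spread between animals. The fit was tested on simulated data. The values of 1 further marker gene are not reported here. The genes and lists were chosen with earlier results of these data known. Named were all genes past the threshold between regions, and elsewhere those at an unadjusted p under 0.05 or, where fewer than 3, the 3 of smallest p, with Arc in the iTBS comparisons; among correlations, the 5 highest, the 3 lowest, Arc, Egr1, Npas4 and Nr4a1. Maff over both treatments was singled out after its values were seen. Regions of the same number are the same animal (deviations correlated from -0.25 to 0.44, above 0.1 in 17 of 24 animals), and the region comparison was paired. Same-numbered sham and iTBS animals correlated above 0.1 in all 3 pairs only in AI cortex, and animals numbered 1 were scanned on the later days in every group. Alternatives were other scalings, background and filter settings, repeats, scan day, slide, the replicate number, the selection rule of the methods, and leaving out each animal.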

Additional observations from a re-analysis of the deposited data

Results flagged for a closer look

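In 23 of 360 groups of 4 or 5 animals, 1 animal lay far from the others by Dixon's test of its gap. Chance alone gives about 1 in 20 groups, and groups of 3 were not examined. In the hippocampus there were 13: Arc in AU_iTBS animal 2 (6.35, others 6.80 to 6.94), Egr1 in Y_Sham animal 2 (4.67, others 4.36 to 4.36), Egr4 in AU_Sham animal 1 (4.77, others 5.31 to 5.38), Nr4a3 in AU_iTBS animal 2 (4.44, others 3.71 to 3.84), Ier5 in Y_Sham animal 2 (6.03, others 6.10 to 6.11), Dusp1 in Y_iTBS animal 4 (0.22, others -0.57 to -0.47), Dusp4 in Y_iTBS animal 4 (0.14, others -1.46 to -1.36), Homer1 in Y_Sham animal 4 (6.10, others 5.94 to 5.95), Plk2 in Y_Sham animal 2 (5.34, others 4.90 to 4.97), Atf3 in AI_Sham animal 1 (2.96, others 0.30 to 0.74), Maff in AU_Sham animal 4 (0.91, others -0.08 to 0.05), Maff in AI_Sham animal 1 (0.73, others 0.10 to 0.15) and Trib1 in Y_iTBS animal 4 (0.43, others -0.84 to -0.75).

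In the cortex there were 10: Fosb in Y_Sham animal 2 (1.38, others 0.98 to 1.03), Fosb in AI_Sham animal 1 (3.68, others 1.22 to 1.56), Jun in AI_Sham animal 1 (6.01, others 5.52 to 5.58), Egr2 in Y_iTBS animal 3 (0.12, others 0.89 to 1.05), Dusp1 in AI_Sham animal 1 (2.54, others 0.66 to 0.82), Dusp4 in AI_Sham animal 1 (-1.77, the highest of its group), Nptx2 in AI_Sham animal 1 (4.63, others 3.50 to 3.57), Atf3 in Y_Sham animal 4 (-2.48, others -0.58 to -0.19), Maff in AU_Sham animal 4 (0.92, others -0.31 to -0.22) and Trib1 in AI_Sham animal 1 (1.49, others -0.19 to 0.09). AI_Sham animal 1 accounted for 6 of these 10 and was the highest animal of its group in each. The cause was not tested.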

How the results depend on the processing

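Between the regions none of the 28 genes called changed its direction under any alternative. When each animal was left out in turn 27 to 28 genes were called, with Fosl2 or, without AI_iTBS animal 1, Jund the gene lost. Without pairing (no replicate block) 27 genes were called, all among the 28. Most same-numbered sham and iTBS animals did not deviate together (correlations of -0.09 to 0.4 in the hippocampus and -0.28 to 0.39 in the cortex), and the replicate block, with medians of -0.22 in aged and -0.28 in AI cortex, called 0 genes in any comparison within a region. Of the counts and medians over the 36 genes, 920 were labelled the same and 18 moved. That label allowed a shift, since the median for iTBS in AI cortex (-0.20, and 0.01 without AI_Sham animal 1) was not counted as moved. Of the values of single genes, 2536 were labelled the same, 51 weaker, 16 reversed and 5 stronger. Without AI_Sham animal 1 and AU_Sham animal 4, added after the data were seen, 4 genes in place of 7 passed between the regions of an animal and 11 in place of 20 with cortical Fos, and r of Homer1 with cortical Fos was 0.11. On the first scan day the median was -0.01 for iTBS in AI hippocampus, 0.06 in AI cortex, -0.04 for AI minus AU sham hippocampus and 0.03 for aged minus young iTBS differences in the hippocampus. On the later days, which held 1 animal in several groups and were added after the data were seen, the medians were -0.36 for iTBS in AI and -0.23 in all aged hippocampus, -1.03 and -0.44 in the cortex, 0.18 for aged minus young sham and 0.22 for AI minus AU sham hippocampus, 0.85 for AI minus AU sham cortex, and -0.3 and -0.52 for aged minus young iTBS differences in hippocampus and cortex. There Atf3 differed by -4.1 for iTBS in AI cortex, which was AI_iTBS animal 1 against AI_Sham animal 1. It differed by 3.75 for AI minus AU sham cortex, which was AI_Sham animal 1 against AU_Sham animal 1. Both rest on 1 animal a side, so no call is read from them. With sham and iTBS animals together 1 gene, Maff, was called with age in the hippocampus.

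Single genes turned on the later days: in young hippocampus Dusp6 (0.02), Jund (-0.32) and Arc (0.25), in AU hippocampus Sik1 (0.31) and Arc (0.11), in AI minus AU sham Ier3 (-0.15, hippocampus) and Ptgs2 (0.39, cortex), and cortical Arc with iTBS in young (0.19) and AU (0.24). Arc in AI cortex was 0.32 on the first scan day, Arc in young hippocampus 0.01 on first arrays only and -0.11 to 0.07 without 1 animal, and r of Sik1 with hippocampal Fos 0.03 once scan days were removed. The cause of these was not tested.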

Other observations

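One hippocampal array could not be placed, since its title and description name different groups. It read 6.78 for Arc, 0.46 for Fos and 4.68 for Egr1, inside the range of the placed animals for each. Its deviations were most like those of AU_iTBS animal 4 (r = 0.829, next animal 0.261), which were not used to place it.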
